A study of Rattus norvegicus with 6 samples.

Results

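The endosomal sorting and recycling machinery is described here as a group of 54 genes, named by their symbols: Rab GTPases and Arf6, their effectors, the EHD ATPases, the retromer core, sorting nexins, and the ESCRT, exocyst and SNARE genes of the endosome, with the transferrin receptor as a recycled cargo. A probe set, the group of short oligonucleotides that together measure a transcript, was a member when the array annotation gave it exactly 1 of these symbols. This found 86 probe sets of 53 genes among the 31042 tested, and none was matched to Stam here. The kidneys came from 6 male rats aged 53 days, each on its own Affymetrix rat expression array. The 3 controls were Dahl salt-sensitive (S) rats, an inbred strain prone to hypertension and proteinuria, and the other 3 were S.LEW(10)x12x2x3x5 rats, a congenic strain on the Dahl S background. The strain name points to Lewis (LEW) rat chromosome 10, and the labels give no further allele. Both groups were weaned at 30 days, shared cages and ate a diet with 0.3% salt, so neither was tested under a high salt load. The series is about endosomal recycling in the proximal tubule and proteinuria, and the comparison here asks whether transcripts of that machinery differ between the strains.

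A protein taken up at the cell surface reaches the early endosome, where Rab5 and its effectors drive fusion. From there it is sent back to the surface by Rab4, Rab11, Arf6 and EHD proteins, rescued by retromer and sorting nexins, or packed by ESCRT into vesicles bound for the lysosome. The exocyst tethers returning vesicles at the plasma membrane, and SNAREs fuse them. In the proximal tubule this cycle returns megalin and cubilin to the brush border, where they bind filtered protein.

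Arrays correlated at 0.985 or above with each other. The kidney label held: Lrp2 and Cubn, the megalin and cubilin genes, lay above 12 on the log2 scale in all rats, as did Slc34a1, Umod and Aqp2. RNA quality was read from the actin and Gapdh controls on the array, as the mean log2 gap between a probe set near the 3′ end and one near the 5′ end, which widens when RNA is broken or labelling stops early. This gap was 1.56, 2.10 and 1.70 in S rats 1, 2 and 3 and 1.26, 1.01 and 1.08 in congenic rats 1, 2 and 3 (difference -0.67). Every S rat was above every congenic rat, S rat 2 the farthest, and the two-sided exact permutation test gave p = 0.1, which is the lowest value 3 and 3 rats can reach. Among marker lists of 11 cell types, the summed level was higher in every congenic than in every S rat for proximal tubule (16.17 to 16.25 against 16.06 to 16.15, log2; 3 of 8 markers higher), fibroblast (14.29 to 14.43 against 13.84 to 14.11; 3 of 5 markers higher) and macrophage (13.68 to 13.85 against 13.40 to 13.53; 4 of 6 markers higher). It was lower in every congenic rat for thick ascending limb (15.17 to 15.20 against 15.23 to 15.29, with 1 of 4 markers lower). The same held for adipocyte (10.73 to 11.07 against 11.35 to 11.87, with 1 of 4 markers lower). The sums use the brightest probe set of each gene on a linear scale, and some markers went the other way without passing. Kcnj1 of thick ascending limb changed by 0.58 (log2), with every congenic rat above every S rat. Lrp2 (-0.094, every congenic rat below), Aqp1 (-0.051) and Miox (-0.0085) of proximal tubule were negative, as was Csf1r (-0.045) of macrophage. The dimmer probe set of Aqp1, outside the sum, was called higher (0.95, limma, adjusted p = 0.0392), with every congenic rat above every S rat. The podocyte list was at 11.18 in S rat 2 and 12.18 in S rat 1, against 11.91 to 12.01 in the congenic rats. The distal convoluted tubule list was at 10.48 and 14.07 in the same rats, against 14.00 to 14.01. In S rats 1, 2 and 3, Nphs1 of the podocyte list was at 8.87, 5.67 and 6.90. Calb1 of the distal list was at 13.51, 9.38 and 12.73, while Pvalb of that list was lowest in S rat 3. The collecting duct, endothelium, lymphocyte and erythroid lists overlapped between groups, with ranges of 13.52 to 13.60, 11.84 to 11.91, 9.27 to 9.45 and 12.63 to 14.34 in S and of 13.44 to 13.61, 11.89 to 11.97, 9.29 to 9.44 and 13.21 to 13.99 in congenic rats. In whole kidney, fewer cells of a type and less RNA per cell cannot be told apart, and the part of cell content in the changes below was not tested.

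Few endosomal probe sets passed the test between the strains, and all that did were higher in the congenic rats. Of the 86, 8 rose at an adjusted p under 0.05 (limma with Benjamini-Hochberg adjustment over all probe sets), or 9.30%, where the background of rises over all 31042 was 3.47%. None fell, against a background of 2.53%. At an unadjusted p under 0.05, 27 members were higher (background 11.3%) and 7 lower (background 14.1%). After adjustment an unmoderated test per probe set called 0 members in either direction. It also called 0 of all 31042, so that 0 is not particular to the members. The change was positive at 50 of the 86 (58.1%, background 43.9%), and its median was 0.034, against -0.020 over all probe sets. The 8 rises belonged to 6 genes: Arf6, Rab5b with 3 probe sets, Rab11b, Rabep1, Ehd4 and Tfrc. In 5 of the 6, every gene except Arf6, a probe set with a brighter signal did not pass. The count turned on single rats. Leaving out S rat 1 gave 24 members higher and 1 lower, with 2697 higher and 2055 lower over all 31042. Leaving out S rat 2 gave 4, namely Arf6, Tfrc and the second and the third brightest probe sets of Rab5b. Over all probe sets it gave 619 higher and 349 lower. Without S rat 3, or without congenic rat 1, 2 or 3, there were 0. At an unadjusted p under 0.05, 22, 22, 21 and 21 of the 86 members were higher in these fits and 5, 7, 3 and 4 lower. Over all 31042 probe sets, those at an unadjusted p under 0.05 in either direction numbered 6968, 7133, 5575 and 5359. Without S rat 3 or congenic rat 2, 0 of all 31042 probe sets were called. Without congenic rat 1, 212 were called higher and 138 lower, and without congenic rat 3, 7 and 1.

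**Figure D1:**
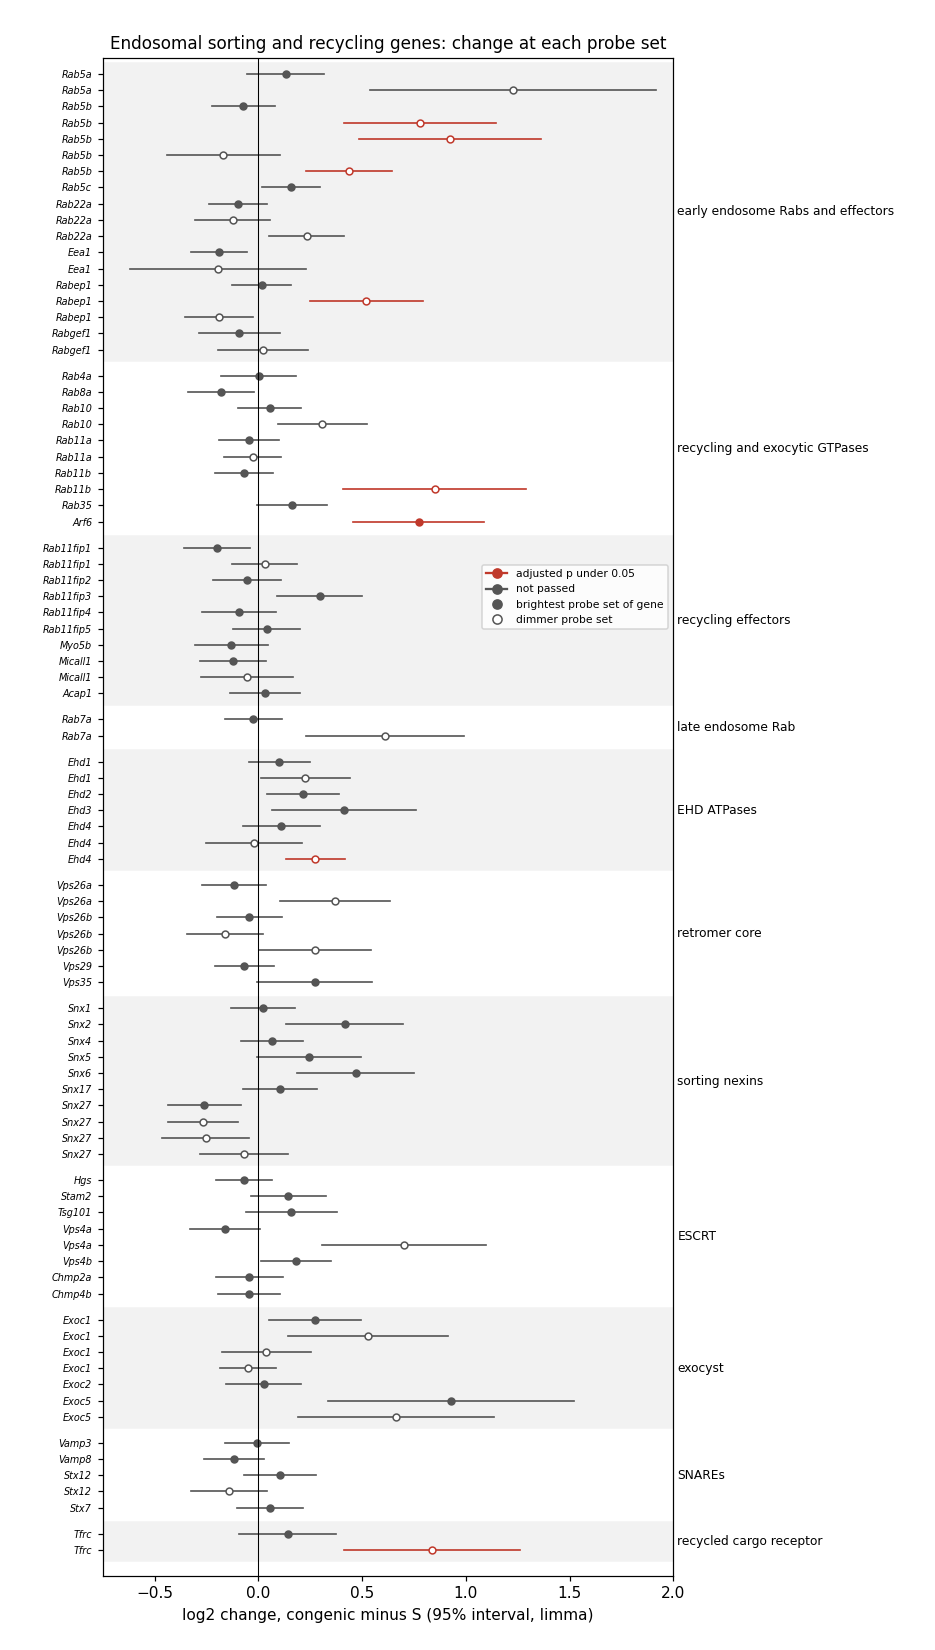
Log2 change from S to congenic rats at each of the 86 member probe sets, with 95% intervals from limma, grouped by complex; filled points are the brightest probe set of a gene, open points its dimmer ones, and red marks an adjusted p under 0.05. Of the 8 red points only that of Arf6 is filled, and changes run from -0.27 at Snx27 to 1.23 at Rab5a.

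Probe sets of one gene differ in signal for reasons other than transcript number, and each gene's were ranked by mean signal over the 6 rats. Among the brightest probe sets of the 53 genes, 1 rose (1.89%, against a background of 2.12% over 14217 genes) and 0 fell (background 2.67%), and their median change was 0.027 (-0.035 over all genes). Among the 33 dimmer probe sets of the 22 genes with several, 7 rose (21.2%, against a background of 9.26% over 6609 dimmer probe sets) and 0 fell (background 1.76%), with a median of 0.23 (0.040 over all such probe sets). Probe sets of 1 gene pointed to opposite signs in 13 of these 22 genes, and the gap between the lowest and highest change within a gene had a median of 0.33. It was widest at Rab5a (1.09), Rab5b (1.09), Rab11b (0.92) and Vps4a (0.86), and narrowest at Eea1 (0.0043) and Rab11a (0.017). Opposite signs and gaps within a gene were not computed over all genes, so these values have no background. Where each probe set lies along its transcript was not analysed here.

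**Figure D2:**
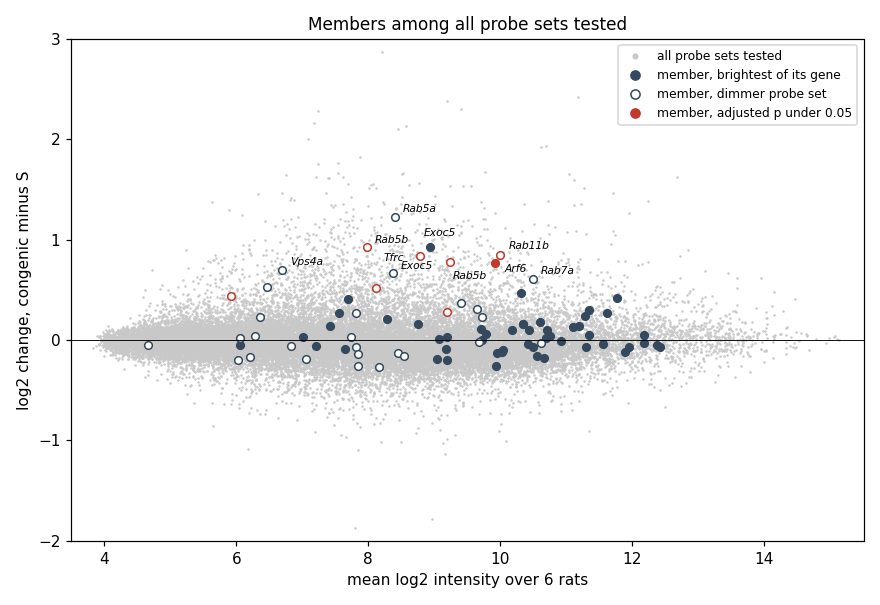
Log2 change from S to congenic rats against mean log2 intensity over 6 rats, for the 31042 tested probe sets (grey) and the 86 members (circles; filled, brightest of its gene; open, dimmer; red, adjusted p under 0.05). Members with a mean above 11 stay between -0.12 and 0.42, and the members with a difference above 0.5 all have means under 11.

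Early endosome genes held 4 of the 8 rises, among 18 probe sets of 7 genes, with a median change of 0.019. That share of 22.2% stood against backgrounds of 3.47% over all probe sets and 9.26% over dimmer ones. All 4 were at dimmer probe sets, 3 of them of Rab5b. Rab5a, Rab5b and Rab5c encode the GTPases that mark the early endosome and drive its fusion. The second brightest probe set of Rab5b stood at 9.19, 8.49 and 8.86 in S rats 1, 2 and 3 and 9.46, 9.73 and 9.69 in congenic rats 1, 2 and 3, on the log2 intensity scale used for all values here. The groups did not overlap, with S rat 2 lowest, and the change was 0.78 ± 0.16 (SE; 1.72-fold, 95% interval 1.33 to 2.21; adjusted p = 0.0355). At the third the values were 7.70, 7.10 and 7.76 in the S rats and 8.11, 8.64 and 8.58 in the congenic rats, a change of 0.92 ± 0.19 (adjusted p = 0.0365), and again S rat 2 was lowest and no values overlapped. The dimmest rose, with 5.77, 5.56 and 5.77 in the S rats and 5.99, 6.20 and 6.22 in the congenic rats, by 0.44 (adjusted p = 0.0354), near the lower part of the intensity scale. Against these, the brightest probe set of Rab5b gave 11.42, 11.30 and 11.28 in the S rats and 11.28, 11.28 and 11.23 in the congenic rats, with every congenic rat slightly below every S rat and a change of -0.073 ± 0.067 (95% interval of the fold 0.855 to 1.06; adjusted p = 0.553). The fourth was at 6.07, 6.32 and 6.47 in the S rats and 5.94, 6.17 and 6.26 in the congenic rats, with overlap (-0.17). Rab5b thus had 3 probe sets that rose and 2 at negative, uncalled values.

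Rab5a had the largest change of any member at its dimmer probe set, where values were 8.57, 7.12 and 7.68 in S rats 1, 2 and 3 and 8.83, 9.08 and 9.14 in congenic rats 1, 2 and 3. No values overlapped, but the S rats spread over more than the distance between the group means, and the change of 1.23 ± 0.30 (2.34-fold, 95% interval 1.45 to 3.78) missed the threshold (adjusted p = 0.0511). Its brighter probe set was at 11.14, 10.88 and 11.09 in the S rats and 11.14, 11.18 and 11.20 in the congenic rats, a change of 0.13 (adjusted p = 0.356) with S rat 2 again lowest. Rab5c, with 1 probe set, was at 0.16 (95% interval of the fold 1.01 to 1.23, adjusted p = 0.155), with every congenic rat above every S rat.

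Rabep1 encodes rabaptin-5, which binds active Rab5 together with the exchange factor rabex-5, the product of Rabgef1. Its middle probe set rose, with 8.14, 7.68 and 7.76 in the S rats and 8.47, 8.27 and 8.40 in the congenic rats, without overlap (change 0.52 ± 0.12, adjusted p = 0.0436). The brightest was at 9.07, 9.08 and 9.02 in the S rats and 9.08, 9.02 and 9.12 in the congenic rats (0.015, 95% interval of the fold 0.915 to 1.12), with overlap. The dimmest was at 7.20, 7.11 and 7.16 in the S rats and 7.06, 6.87 and 6.97 in the congenic rats, where every congenic rat lay below every S rat without passing (-0.19, adjusted p = 0.143). Rabgef1 was at -0.092 and 0.023. Eea1, the tether that Rab5 recruits to early endosomes, was at 9.15, 9.13 and 9.12 in the S rats and 8.93, 8.93 and 8.96 in the congenic rats at its brighter probe set. Every congenic rat lay below every S rat there, yet the change of -0.19 ± 0.059 did not pass (adjusted p = 0.0904), and the dimmer probe set, at -0.19, overlapped. Rab22a, a GTPase of early endosome traffic, gave -0.10, -0.12 and 0.23 from the brightest to the dimmest (adjusted p from 0.110 to 0.380).

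**Figure D3:**
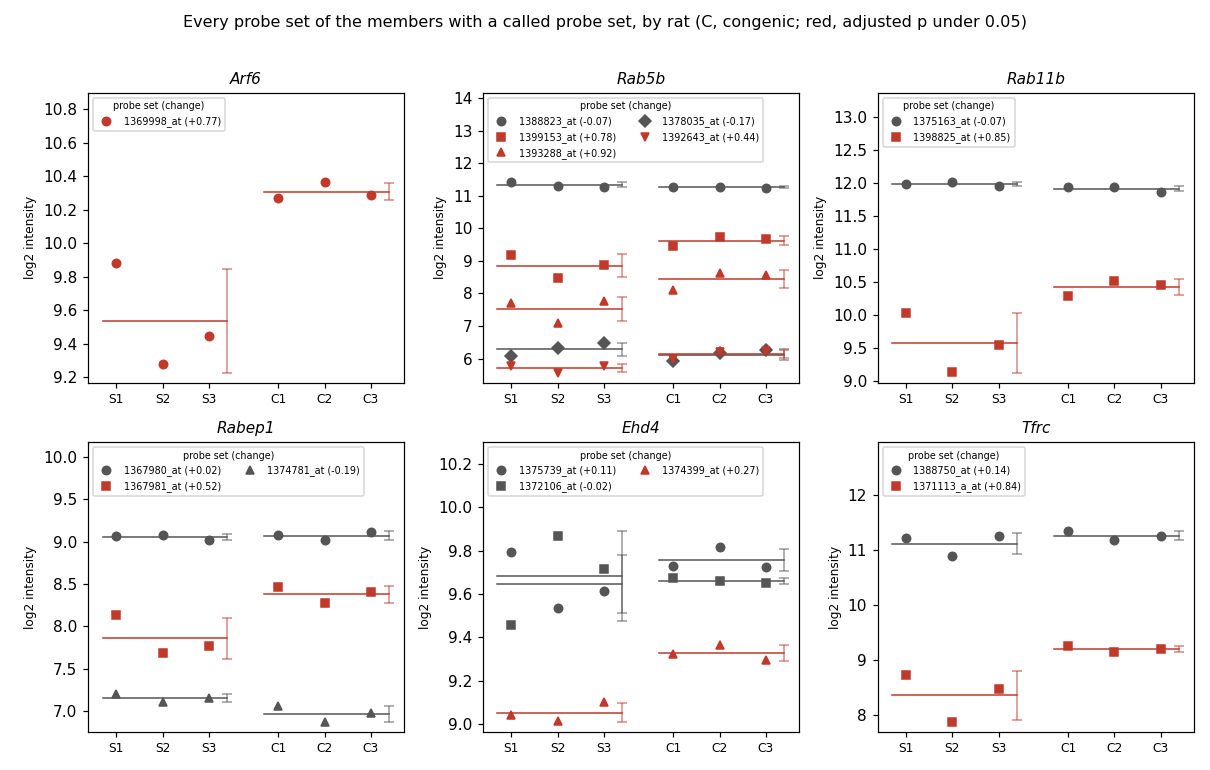
Log2 intensity in each rat for every probe set of the 6 genes with a called probe set; lines are group means, bars are SD (n = 3), red marks an adjusted p under 0.05 and the legend gives each change. At the red probe sets S rat 2 is the lowest of the 6 rats, while the brightest probe sets of Rab5b, Rab11b and Rabep1 lie nearly level across rats.

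Among the GTPases that return cargo to the surface, Arf6 and Rab11b rose and 8 of 10 probe sets did not pass (group median 0.029). The share of rises was 20.0%, against a background of 3.47% over all probe sets. Arf6, which acts at the plasma membrane and on recycling endosomes, has a single probe set and is the only member called at every probe set it has. Its values were 9.88, 9.28 and 9.45 in S rats 1, 2 and 3 and 10.27, 10.36 and 10.29 in congenic rats 1, 2 and 3. The congenic rats lay within 0.1 of each other and above all S rats, and means went from 9.54 ± 0.31 to 10.31 ± 0.049 (SD, n = 3; 1.71-fold, 95% interval 1.37 to 2.12; adjusted p = 0.0267). It was called without S rat 1 or S rat 2 and not when any other rat was left out. Rab11b, a Rab of the recycling endosome, rose at its dimmer probe set from 10.03, 9.13 and 9.54 in the S rats and 10.28, 10.51 and 10.45 in the congenic rats (change 0.85 ± 0.19, adjusted p = 0.0434). S rat 2 was lowest there too, and the groups did not overlap. The brighter one stood at 11.99, 12.01 and 11.95 in the S rats and 11.94, 11.94 and 11.87 in the congenic rats, a change of -0.068 with a 95% interval of the fold of 0.865 to 1.05.

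Rab11a, the main Rab of recycling endosomes in epithelia, gave nearly the same small value at both probe sets. The brighter was at 12.34, 12.46 and 12.37 in the S rats and 12.35, 12.32 and 12.37 in the congenic rats (-0.045, 95% interval of the fold 0.876 to 1.07), and the dimmer at -0.027 (interval 0.892 to 1.08). The groups overlapped at both. Rab4a, which serves the fast return route, was at 0.0018 (interval 0.883 to 1.13, adjusted p = 0.993). Rab8a, an exocytic Rab, was lower in every congenic rat without passing (-0.18, adjusted p = 0.146). Rab10, which works on basolateral and recycling routes, was at 0.055 and, at the dimmer probe set, 0.31 (adjusted p = 0.084). Rab35 was at 0.16.

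The DNA before the start of Arf6, Rab5b and Tfrc is shown because these are the member called at every probe set, the member with the most called probe sets and the recycled cargo. Each run is the 250 bases before the annotated gene start, from RefSeq on the GRCr8 rat assembly (a BN rat, neither S nor LEW), read 5′ to 3′ along the gene. Capitals mark GC boxes (GGGCGG) and CCAAT boxes (CCAAT), on either strand.
Arf6 (chr6:93589527-93589776, plus strand): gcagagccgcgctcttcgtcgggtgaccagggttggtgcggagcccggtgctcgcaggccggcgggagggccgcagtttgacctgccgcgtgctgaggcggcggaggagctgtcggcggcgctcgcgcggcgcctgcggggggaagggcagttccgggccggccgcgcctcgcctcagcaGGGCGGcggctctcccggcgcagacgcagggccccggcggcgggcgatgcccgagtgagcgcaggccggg
Rab5b (chr7:1712737-1712986, minus strand): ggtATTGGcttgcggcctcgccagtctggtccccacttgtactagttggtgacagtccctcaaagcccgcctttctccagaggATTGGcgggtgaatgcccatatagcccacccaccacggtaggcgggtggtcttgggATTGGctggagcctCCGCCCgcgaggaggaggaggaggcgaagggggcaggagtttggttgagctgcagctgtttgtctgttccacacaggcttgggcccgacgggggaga
Tfrc (chr11:81690319-81690568, minus strand): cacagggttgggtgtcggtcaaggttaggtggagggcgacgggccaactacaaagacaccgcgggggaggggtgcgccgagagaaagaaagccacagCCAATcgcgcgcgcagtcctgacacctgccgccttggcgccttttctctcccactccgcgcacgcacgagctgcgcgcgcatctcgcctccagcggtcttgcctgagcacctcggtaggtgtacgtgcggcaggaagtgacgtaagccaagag
Arf6 holds 1 GC box, Rab5b 3 CCAAT boxes and 1 GC box, and Tfrc 1 CCAAT box. None of them holds the E-box CACGTG found in the CLEAR element of lysosomal genes, the TATA box TATAAA or the cyclic AMP response element TGACGTCA, searched in the same way. RefSeq promoters matched 46 of the 53 genes. The GC box was in 34 of them (73.9%), against 54.2% of 11733 promoters of genes on the array and 32.4% of all 27457 promoters of this length. The CCAAT box was in 19 (41.3%, against 35.1% and 34.3%), and CACGTG in 4, Exoc1, Rab5a, Snx2 and Vps26a (8.70%, against 7.82% and 5.79%). TATAAA was in 2 (4.35%, against 8.06% and 13.1%) and TGACGTCA in 3 (6.52%, against 2.64% and 1.70%). The median share of G and C letters was 63.0% in the member promoters and 52.0% over all promoters. Its part in the shares of the GC box and of TATAAA was not tested. These matches describe the letters in the window and no measurement of binding. Among the 46 genes, Acap1, Hgs, Rab11fip3 and Rab5c lie on chromosome 10, to which the strain name points. Members without a matched promoter were not placed. Whether any member lies in the LEW segment was not tested.

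Effectors of recycling did not pass at any of 10 probe sets of 8 genes (median -0.056), with 1 above and 1 below at an unadjusted p under 0.05. Rab11fip1 to Rab11fip5 encode the adaptors that couple Rab11 to motors and tethers, and Myo5b the myosin that moves Rab11 vesicles. Rab11fip3 came nearest on the high side, at 11.35, 11.02 and 11.19 in the S rats and 11.46, 11.48 and 11.52 in the congenic rats, without overlap (0.30 ± 0.089, adjusted p = 0.0832). On the low side was the brighter probe set of Rab11fip1, at 9.32, 9.30 and 9.25 in the S rats and 9.18, 9.01 and 9.09 in the congenic rats, also without overlap (-0.20, adjusted p = 0.12), while its dimmer one was at 0.03. Rab11fip2 (-0.057), Rab11fip4 (-0.092), Rab11fip5 (0.04) and Myo5b (-0.13) overlapped between groups. Micall1, a tubular recycling endosome scaffold that binds EHD proteins, was at -0.12 and -0.054, and Acap1, an Arf6 GTPase activating protein, at 0.03.

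The EHD ATPases, which shape and sever recycling tubules, had 1 of 7 probe sets pass (14.3%, against a background of 3.47% over all probe sets). Of the 7, 6 were above 0, with a median of 0.21. Ehd4 rose at the dimmest of its 3 probe sets, from 9.04, 9.02 and 9.10 in the S rats and 9.32, 9.36 and 9.29 in the congenic rats. The spread was small in both groups, SD 0.044 in S and 0.035 in congenic rats, and the change of 0.27 ± 0.063 passed (adjusted p = 0.0429). The brightest was at 9.79, 9.53 and 9.61 in the S rats and 9.73, 9.82 and 9.72 in the congenic rats (0.11) and the middle one at 9.46, 9.87 and 9.71 in the S rats and 9.67, 9.66 and 9.65 in the congenic rats (-0.021), and both overlapped. Ehd1 was at 10.69, 10.70 and 10.60 in the S rats and 10.75, 10.80 and 10.73 in the congenic rats at its brighter probe set (0.10, adjusted p = 0.372), with all congenic rats above all S rats. Ehd3 was at 0.41 (adjusted p = 0.133), with S rat 2 at 7.14 and the groups overlapping, and Ehd2 at 0.21 (adjusted p = 0.121).

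Retromer is the coat subcomplex of Vps26, Vps29 and Vps35 that lifts cargo out of endosomes. None of its 7 probe sets passed (median -0.044). Vps35, its scaffold, was at 11.74, 11.21 and 11.49 in the S rats and 11.76, 11.74 and 11.76 in the congenic rats. S rats 2 and 3 stood below every congenic rat, S rat 1 overlapped with them, and the change was 0.27 (95% interval of the fold 0.997 to 1.46, adjusted p = 0.203). Vps29 was at 12.40, 12.51 and 12.45 in the S rats and 12.41, 12.38 and 12.37 in the congenic rats (-0.068, interval 0.864 to 1.05). Vps26a gave -0.12 at the brighter probe set and 0.37 at the dimmer, the latter at 9.50, 9.05 and 9.13 in the S rats and 9.54, 9.54 and 9.70 in the congenic rats (adjusted p = 0.0936), without overlap. Vps26b gave -0.044, -0.16 and 0.27.

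Snx1, Snx2, Snx5 and Snx6 form the membrane-bending dimers that work with retromer, and Snx17 and Snx27 are adaptors that recognise receptor tails, megalin-family receptors among the cargo of Snx17. None of 10 probe sets passed (median 0.044). Snx6 came nearest, at 10.37, 9.85 and 10.01 in the S rats and 10.62, 10.46 and 10.56 in the congenic rats, without overlap (0.47 ± 0.12, adjusted p = 0.0603), followed by Snx2 at 11.79, 11.26 and 11.61 in the S rats and 11.98, 11.93 and 11.99 in the congenic rats (0.42, adjusted p = 0.0789), also without overlap. In both genes S rat 2 was lowest. Snx5 was at 0.24, Snx17 at 0.10 (95% interval of the fold 0.949 to 1.22), Snx4 at 0.064 and Snx1 at 0.024 (interval 0.914 to 1.13). Snx27 was the member with the most probe sets below 0, all 4 of them. From the brightest to the dimmest its changes were -0.26, -0.27, -0.25 and -0.069 (adjusted p = 0.0779, 0.0657, 0.128 and 0.712). The brightest was at 10.00, 10.18 and 10.03 in the S rats and 9.88, 9.82 and 9.72 in the congenic rats, with all congenic rats below all S rats. It passed as lower without S rat 1 and, with another Snx27 probe set and Eea1, with array weights.

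ESCRT sorts ubiquitinated receptors into the lysosomal route. None of its 8 probe sets of 7 genes passed (median 0.050). Hgs, which encodes HRS, the subunit that first binds ubiquitinated cargo, was at 10.52, 10.56 and 10.52 in the S rats and 10.47, 10.45 and 10.46 in the congenic rats, a change of -0.071 (95% interval of the fold 0.867 to 1.05). Vps4a, an ATPase that takes the complex apart, again had probe sets that disagreed: 10.57, 10.74 and 10.58 in the S rats and 10.53, 10.41 and 10.47 in the congenic rats at the brighter (-0.16) and 6.78, 6.00 and 6.25 in the S rats and 6.96, 7.03 and 7.15 in the congenic rats at the dimmer (0.70 ± 0.17, adjusted p = 0.0513). The groups were separate at both, in opposite directions. Its paralogue Vps4b was at 0.18, Tsg101, of the second ESCRT complex to act, at 0.16, Stam2 at 0.14, and the filament subunits Chmp2a and Chmp4b at -0.044 and -0.047. The values behind Chmp2a were 11.55, 11.67 and 11.50 in the S rats and 11.57, 11.47 and 11.55 in the congenic rats, with overlap. Rab7a, the late endosome Rab, gave at its brighter probe set 12.20, 12.16 and 12.21 in the S rats and 12.19, 12.13 and 12.17 in the congenic rats (-0.025, interval of the fold 0.893 to 1.08). At the dimmer it was at 10.58, 9.81 and 10.18 in the S rats and 10.72, 10.85 and 10.83 in the congenic rats, without overlap (0.61 ± 0.17, adjusted p = 0.0641).

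Exocyst values were mostly positive, at 6 of 7 probe sets (median 0.27), and none passed. Exoc5, a core subunit, gave 9.11, 7.84 and 8.47 in S rats 1, 2 and 3 and 9.32, 9.48 and 9.41 in congenic rats 1, 2 and 3 at the brighter probe set and 8.57, 7.58 and 7.97 in the S rats and 8.71, 8.66 and 8.74 in the congenic rats at the dimmer. S rat 2 was more than 1 log2 unit below every congenic rat at both. The changes were 0.93 ± 0.26 (1.9-fold, adjusted p = 0.0686) and 0.67 ± 0.21 (adjusted p = 0.09). Of the members with several probe sets, Exoc5 was the only one with all of them above 0.5. Exoc1 ranged from -0.051 to 0.53 over 4 probe sets (adjusted p from 0.0964 to 0.851), its brightest being a probe set whose suffix marks probes shared between transcripts. Exoc2 was at 9.30, 9.13 and 9.12 in the S rats and 9.30, 9.12 and 9.21 in the congenic rats (0.027, adjusted p = 0.882).

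SNARE values stayed between -0.14 and 0.10, with 0 of 5 probe sets passing in limma and 0 at an unadjusted p under 0.05 (median -0.0058). Vamp3, of recycling vesicles, was at -0.0058 (95% interval of the fold 0.894 to 1.11). Vamp8, of endosome fusion, was at 11.91, 12.01 and 11.94 in the S rats and 11.86, 11.84 and 11.80 in the congenic rats, with each congenic rat below each S rat (-0.12, adjusted p = 0.287). Stx7, of late endosomes, was at 12.24, 12.06 and 12.16 in the S rats and 12.21, 12.16 and 12.25 in the congenic rats (0.055), and Stx12, of recycling endosomes, at 0.10 and -0.14.

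Tfrc, the transferrin receptor, is the classic cargo of the recycling route and is also high in red cell precursors. Its dimmer probe set rose, with 8.74, 7.87 and 8.48 in the S rats and 9.25, 9.15 and 9.20 in the congenic rats, without overlap (0.84 ± 0.19, 1.79-fold, adjusted p = 0.0409), and was called without S rat 1 or S rat 2 but not when any other rat was left out. The brighter gave 11.22, 10.90 and 11.25 in the S rats and 11.35, 11.18 and 11.26 in the congenic rats, where the groups overlapped (0.14, 95% interval of the fold 0.937 to 1.3, adjusted p = 0.448). The summed erythroid markers ran from 12.63 to 14.34 in S and from 13.21 to 13.99 in congenic rats, with 1 of 3 lower. That 1 was Slc4a1, which is also in the collecting duct list and whose dimmer probe set was at 0.31, uncalled. Alas2 (-0.40) and Hbb (0.12) were uncalled and opposite in sign. The part of red cell content in the rise of Tfrc was not tested.

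The same rat order ran through most of these rises. All 12 members with a difference above 0.5 had S rat 2 as the lowest of the 6 rats. So did 892 of all 1029 probe sets with such a difference (86.7%). S rat 2 was lowest in 37 of the 86 members (43.0%) and in 22.8% of all tested probe sets. It was lowest in 8 of the 8 called members, and in 73.6% of all 1078 probe sets called higher. In 11 of those 12, or 91.7%, S rat 2 was lowest, S rat 3 next and S rat 1 highest of the S rats, the reverse of their order in the 3′ to 5′ gap. This order held at 39.5% of the members, at 18.9% of all tested probe sets and at 81.1% of all 1029 with a difference above 0.5. Among the 8 called members the median SD was 0.33 in S and 0.11 in congenic rats. Over all 1078 probe sets called higher it was 0.19 and 0.10, and over the 1029 above 0.5 it was 0.34 and 0.12. Groups did not overlap in 25 members with congenic rats higher (29.1%, against a background of 12.7%) and in 15 with congenic rats lower (17.4%, against a background of 18.4%).

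**Figure D4:**
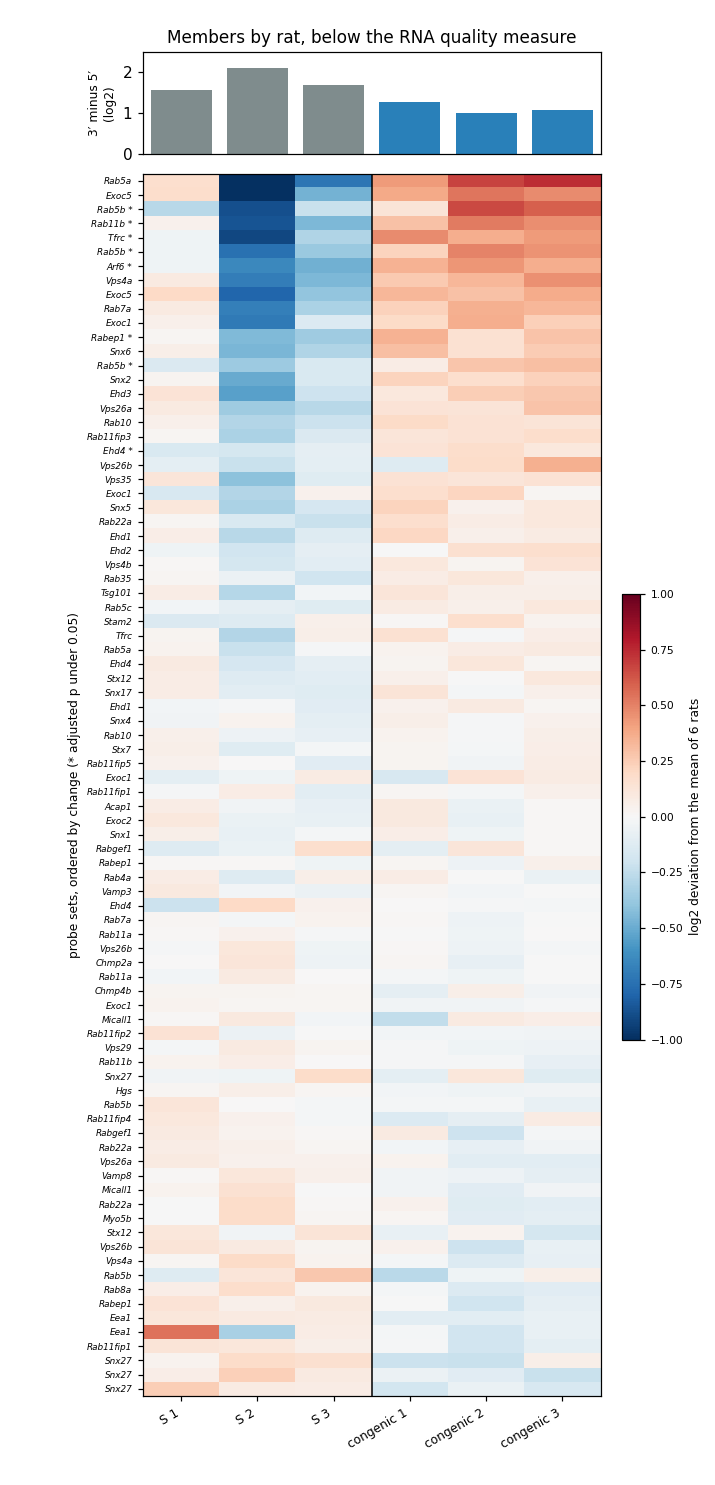
Each row is a member probe set, ordered by change, and each column a rat; colour is the log2 deviation from the mean of 6 rats and stops at 1 on either side. The bars on top give the 3′ minus 5′ gap of the control probe sets in each rat (log2); S rat 2 has the highest bar (2.10) and the darkest column in the upper rows.

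When the 3′ to 5′ gap was added to the limma fit, an alternative first chosen after these data had been seen, 0 members passed at an adjusted p under 0.05, as did 0 of all 31042 probe sets (background 0.0%). At an unadjusted p under 0.05 this left 4 members and 2292 probe sets. The 8 called rises became values between -0.10 and 0.22. Their median went from 0.78 to 0.053, against 0.57 to 0.22 over all 1078 probe sets called higher. Arf6 went to 0.21 ± 0.20 (SE), Rabep1 to 0.22, Ehd4 to 0.22, Rab11b to -0.10, Tfrc to 0.012, and the 3 probe sets of Rab5b to -0.024, -0.019 and 0.094. Ehd4 thus kept most of its size and the others lost more. Of the 12 members above 0.5, 9 turned negative, Rab5a to -0.23 and Exoc5 to -0.34 among them. The share that turned negative among all probe sets above 0.5 was not counted. The 4 values of Snx27 stayed below 0, at -0.032, -0.44, -0.16 and -0.23. Because the gap itself separates the groups, the strain and RNA quality cannot be told apart by this fit.

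**Figure D5:**
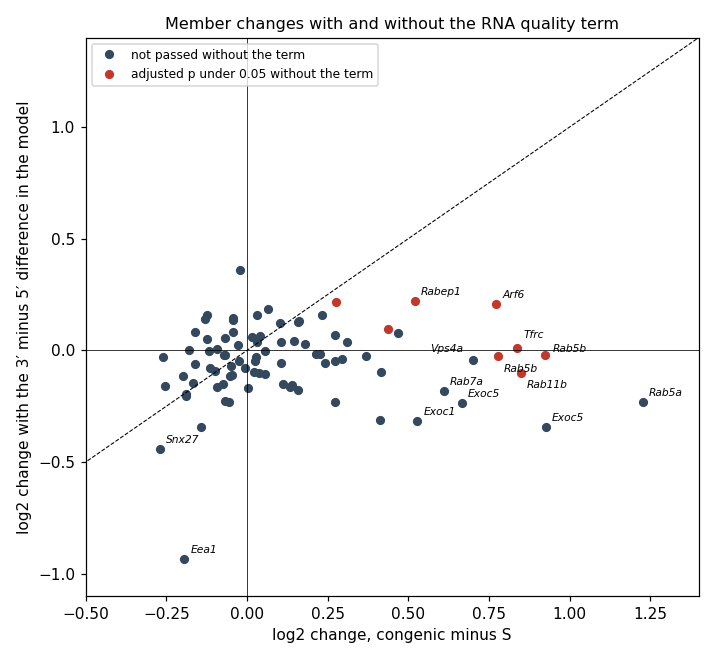
Log2 change from S to congenic rats at each member probe set without (horizontal) and with (vertical) the 3′ to 5′ gap in the model; the dashed line marks equal values and red marks the 8 called without the term. The red points, from 0.27 to 0.92 without the term, lie between -0.10 and 0.22 with it.

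Other genes of the same pathway, 151 measured of 159 listed, had 254 probe sets. There were 9 rises (3.54%, close to the background of 3.47%) and 2 falls (0.787%, below the background of 2.53%), with a median change of -0.0082 (-0.020 over all probe sets). Both falls were of Ccdc93, a subunit of the CCC part of Commander, the complex that recycles receptors together with Snx17. Its probe sets gave 7.84, 8.15 and 8.02 in the S rats and 7.50, 7.63 and 7.67 in the congenic rats (-0.40 ± 0.091, adjusted p = 0.0424) and 6.93, 7.04 and 6.68 in the S rats and 6.57, 6.32 and 6.38 in the congenic rats (-0.46, adjusted p = 0.0435). Congenic rats were below S rats at both, and with the 3′ to 5′ term the values were -0.20 and -0.14. Ccdc93 was the only WASH or Commander gene called among 20. Without S rat 1 the pathway lists had 29 rises and 11 falls, without S rat 2 they had 3 and 0, and without any 1 of the other rats 0 and 0. Over all 31042 probe sets there were 2697 rises and 2055 falls without S rat 1, and 619 and 349 without S rat 2.

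The 9 rises came from 9 genes. Vps41, a subunit of the HOPS tether of late endosomes, rose by 0.81 at its dimmer probe set (5.83, 5.26 and 5.98 in the S rats and 6.49, 6.54 and 6.46 in the congenic rats; adjusted p = 0.0335), and Vps52, shared by the GARP and EARP tethers, by 0.38 (adjusted p = 0.0335). Snx18, a membrane-bending nexin, rose by 0.68, Usp8, which removes ubiquitin from endosomal cargo, by 0.61, and Stx6, a SNARE of endosome to Golgi transport, by 0.56 (adjusted p = 0.0377, 0.0373 and 0.0406). Cyth1, an exchange factor for Arf proteins, rose by 0.45, Dennd6a, an exchange factor for Rab14, by 0.36, and Rab14 itself by 0.41 (adjusted p = 0.0408, 0.0384 and 0.0372). Pi4k2a, a phosphatidylinositol kinase of endosomes, rose by 0.50 (adjusted p = 0.0369). Dennd6a was called at its brightest probe set, with 9.79, 9.65 and 9.58 in the S rats and 10.08, 9.95 and 10.07 in the congenic rats. Pi4k2a has a single probe set, with 7.33, 7.14 and 7.23 in the S rats and 7.58, 7.66 and 7.96 in the congenic rats. The other 7 were called at a dimmer one. With the 3′ to 5′ term Dennd6a was at 0.32, Pi4k2a at 0.24, Vps41 at 0.11, Snx18 at 0.006 and Usp8 at 0.011. Without the term, shares of rises by list ran from 0.0% to 7.69%, against a background of 3.47% over all probe sets. By list, rises numbered 1 of 21 probe sets of other endosomal Rabs, 2 of 59 of Rab and Arf6 regulators, 1 of 27 of other sorting nexins, 1 of 37 of other ESCRT subunits, 1 of 25 of other SNAREs, 2 of 26 of tethers, 1 of 19 of phosphoinositide enzymes and 0 of 11 of other exocyst subunits.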

How the data were processed

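Total kidney RNA of each rat was made into biotin-labelled cRNA and hybridized to its own array, per the labels' protocols. Values are those the authors deposited, on a log2 scale from 3.76 to 15.1 and, judged from the array medians (7.47 to 7.50), comparable between arrays. Their normalization is not given in the sources used here. The submitters used Benjamini-Hochberg adjustment in R 2.8.1, per the series' design text. Arrays have no read depth, so the 3 rats per group limit precision. Of 31099 probe sets, 57 controls were left out. Platform annotation gave 20826 of the rest 1 symbol, 436 several and 9780 none; 20758 matched the RefSeq table (GRCr8) by Entrez identifier.

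The comparison used lmFit and eBayes of limma 3.58.1 under R 4.3.3 (two-sided, Benjamini-Hochberg over 31042 probe sets, adjusted p under 0.05); SE and intervals (95%) use 8.49 degrees of freedom, 4 of them residual. The fit was tested on simulated data. Tables and figures used Python 3.11.15 and matplotlib 3.10.9.

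Members and lists were chosen with earlier results of these data known. Values by rat are given for called probe sets, all probe sets of their genes, the brightest and the smallest p of each complex, and Arf6, Exoc5, Snx6 and Tfrc; other members and single rats were singled out after their values were seen. From the pathway lists each gene with a call is named. Rats in a group are separate animals, and their numbers do not pair them (correlation of deviations -0.014, -0.18 and -0.14 for numbers 1, 2 and 3).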

Additional observations from a re-analysis of the deposited data

How the results depend on the processing

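The 8 member rises became 15 with an intensity trend, 25 with array weights, 3 with the rat number as a replicate block (Arf6, Tfrc and Rabep1), 19 at an adjusted p under 0.1, 1 with 1 probe set per gene, and 0 with an unmoderated test or with the 3′ to 5′ gap as a covariate; leaving out each rat gave 0 to 24. Quantile normalization, robust eBayes and a filter at the percentile 40 of mean intensity gave 8, and median centring 10. Rises over all 31042 probe sets, 1078 in the main fit, moved as well. They became 1491 with the trend, 3128 with weights, 476 with the replicate block and 2258 at an adjusted p under 0.1. Unmoderated or with the covariate there were 0, and leaving out each rat gave 0 to 2697. Quantile normalization gave 1038, robust eBayes 1073 and median centring 1123. The filter gave 1003 of 18625, and 1 probe set per gene 197 of 14217. Member falls, 0, became 3 with array weights, 3 at an adjusted p under 0.1, and 0 to 1 on leaving out each rat. The 9 pathway rises became 5 with the filter, 16 with the trend, 36 with weights, 1 with the replicate block, 2 with 1 probe set per gene, 21 at an adjusted p under 0.1, 0 unmoderated or with the covariate, and 0 to 29 on leaving out each rat. The 2 pathway falls became 5 with median centring, 7 with the filter, 9 with the trend, 4 with robust eBayes, 19 with weights, 18 at an adjusted p under 0.1, 0 unmoderated, with the replicate block, with the covariate or with 1 probe set per gene, and 0 to 11 on leaving out each rat. The 3′ to 5′ difference ran from -0.78 to -0.51 on leaving out each rat. With the covariate 42 of the 86 member probe sets changed sign, among them both of Rab5a (-0.23 and -0.17), Vps35 (-0.23) and the brighter of Vps4a (0.082). Alternatives were compared over the 32 probe sets that the rule for values by rat selects, of which 18 changed sign: Rab5b -0.024 and -0.019, Rab11a 0.083, Rab11b -0.10, Rab11fip3 -0.040, Rab7a -0.18, Ehd4 -0.15 and 0.36, Vps26a -0.028, Vps29 0.053, Snx2 -0.097, Vps4a -0.043, Chmp2a 0.14, Exoc2 -0.028, Exoc5 -0.34 and -0.23, Stx7 -0.10 and Tfrc -0.16. Signs also turned for Ehd4 with quantile normalization (0.0037) and Chmp2a with array weights (0.0065), and on leaving out rats for Rabep1 (-0.0072 to 0.043), Ehd4 (-0.13 to 0.073), Chmp2a (-0.081 to 0.0038) and Exoc2 (-0.017 to 0.086), all uncalled. The cause was not tested.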
